A study of Mus musculus with 6 samples.

Results

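The colony-stimulating factors and related myeloid growth factors encoded by Csf1, Csf2, Csf3, Il34 and Kitl were followed in a mouse melanoma line, D4M-3A, that expresses IκBζ without stimulation. These 5 genes were chosen by name and by function, with earlier results of these data known. All 5 were among the 43043 genes listed for each sample, and all 5 were among the 14419 genes with enough reads to be tested. RNA of 3 control samples (Ctrl), which had received an empty CRISPR-Cas9 construct by lentivirus, was compared with RNA of 3 Nfkbiz knockout samples (Nfkbiz KO), which had received a construct directed at Nfkbiz. Transduced cells were selected with puromycin, both groups were grown in the same serum-containing medium, and the labels name no stimulation with a cytokine for either. IκBζ, the protein encoded by Nfkbiz, is an atypical member of the IκB family that works in the nucleus, where it raises the transcription of some genes bound by NF-κB and lowers that of others. The samples of a group are described in the study as independent experiments. Whether the knockout cells were a single clone or a pool is not given in the sources used here, and the p-values measure only the spread between these samples.

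Csf1 (M-CSF) and Il34 encode ligands of the receptor CSF1R, which keeps monocytes and tissue macrophages alive and growing. Csf2 (GM-CSF) and Csf3 (G-CSF) encode soluble cytokines that drive the output and activation of granulocytes and, for GM-CSF, of macrophages and dendritic cells. Kitl (stem cell factor) encodes the ligand of KIT, on which haematopoietic stem cells, mast cells and melanocytes depend. Tumor cells can release such factors, and in many tumors the myeloid cells that respond to them make up a large part of the infiltrate.

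The samples had 32219900 to 44927203 gene reads each. Counts varied more among the Ctrl samples (chi-square per degree of freedom 27.8 to 71.4 for a pair of samples) than among the knockout samples (3.53 to 6.24). The targeted gene itself, Nfkbiz, had 69.1, 75.2 and 63.4 TPM (a level corrected for transcript length and library depth) in the Ctrl samples and 34.8, 34.7 and 35.1 TPM in the Nfkbiz KO samples. The reads do not distinguish edited from unedited transcripts. Of 11 melanocyte lineage markers, Sox10, Tyr, Ednrb and Kit had 0 reads in all 6 samples, and 9 of the 11 stayed under 1 TPM in every sample. The 3 that could be tested did not pass. Of these, Pax3, an early regulator of the lineage, was present at 8.87 ± 0.638 TPM (SD, n = 3) in Ctrl and at 9.75 ± 0.576 TPM in the knockout samples. The cells are labelled as melanoma cells, but most of the defining melanocyte genes were at 0 or under 1 TPM.

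Csf1 was by far the most abundant of the 5 factors in both groups. All values are of bulk RNA, in which fewer cells that express a gene and less RNA per cell cannot be told apart. In Ctrl, the mean level of Csf1 was 11.3 times that of Il34, the next factor. Il34 and Csf2 overlapped in Ctrl, with Il34 above Csf2 in only 1 of 3 samples, and Kitl and then Csf3 followed without overlap between neighbours. In Nfkbiz KO the order was Csf1, Il34, Kitl, Csf2 and Csf3, and no neighbours in that order overlapped. Csf2 therefore ranked above Kitl in all 3 Ctrl samples and below it in all 3 Nfkbiz KO samples. Csf1 exceeded the level of 98.6% of all tested genes in Ctrl, whereas Csf3 exceeded 26.4% of them in Ctrl and 7.18% in Nfkbiz KO.

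**Figure D1:**
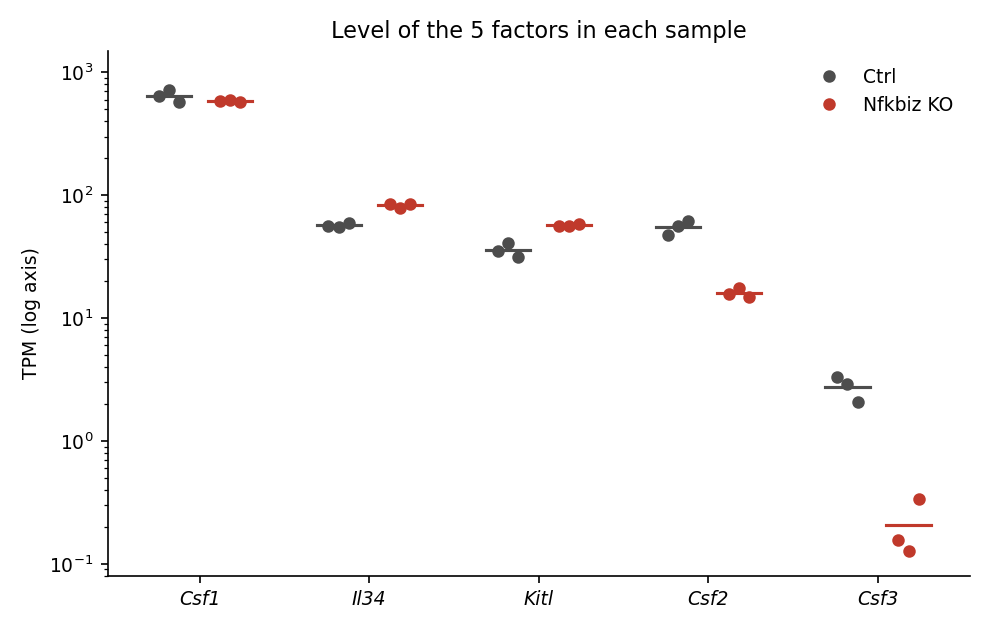
TPM of each factor in every sample (log axis), with 1 point per sample and a bar at the group mean, for 3 Ctrl (grey) and 3 Nfkbiz KO (red) samples. Csf1 lies highest in both groups at 647 and 584 TPM, Csf2 and Csf3 are lower and Il34 and Kitl are higher in every Nfkbiz KO sample than in every Ctrl sample.

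The granulocyte-related factors were the members with the largest fold changes, and both were lower in the knockout samples. Csf2 had 47.0, 55.8 and 61.2 TPM in Ctrl replicates 1, 2 and 3, from 426, 527 and 716 reads. In the knockout, replicates 1, 2 and 3 reached 15.6, 17.5 and 14.8 TPM, from 124, 171 and 157 reads. Every Nfkbiz KO sample thus lay well below every Ctrl sample, and the lowest Ctrl level was still above 47 TPM. Csf2 fell 3.73-fold (log2 fold change -1.90, standard error 0.13, 95% confidence interval -2.19 to -1.61, adjusted p = 3.3e-07, edgeR's quasi-likelihood test). Of its reads, 92.0% mapped uniquely, against 99.6% to 100% for the other members. Only 124 of the tested genes had a lower log2 fold change than Csf2.

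Csf3 was the member with the lowest level and the largest fold change. It had 3.302, 2.883 and 2.089 TPM in the Ctrl samples, from 49, 47 and 39 reads. The Nfkbiz KO samples had 0.157, 0.127 and 0.336 TPM, from 2, 2 and 6 reads. All 3 Ctrl samples were low but clearly above the detection limit of 3 reads, whereas Nfkbiz KO replicates 1 and 2 lay under it. Csf3 fell 13.5-fold by the fitted value (log2 fold change -3.76, standard error 0.43, 95% confidence interval -4.68 to -2.83, adjusted p = 2.3e-05, edgeR's quasi-likelihood test). From the reads alone, 135 in Ctrl and 10 in Nfkbiz KO, the ratio after division by depth was 13.6, with an exact 95% interval of 7.18 to 29.0 that covers counting error only. Its size was thus much less well determined than that of Csf2. Only 17 of the tested genes had a lower log2 fold change than Csf3.

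The Csf2 and Csf3 transcripts are also the members with the highest density of ATTTA, a sequence of AU-rich elements, in their 3′ ends. Some AU-rich elements are bound by proteins of the tristetraprolin family, which speed up the decay of cytokine mRNAs. The densest windows of 30 bases are shown for these transcripts. The windows were chosen for display after the changes of the members were seen, and a link between the elements and those changes was not tested. They were read from the GENCODE transcripts ENSMUST00000019060.6 and ENSMUST00000038886.4 (GRCm39), inside the 3′ UTR in the last exon, and capitals mark each ATTTA.
Csf2, chr11:54138155-54138184, minus strand: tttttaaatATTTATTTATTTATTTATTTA
Csf3, chr11:98593810-98593839, plus strand: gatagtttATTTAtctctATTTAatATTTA

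The Csf2 window holds 5 overlapping copies of ATTTA and the Csf3 window 3 separate ones. Over its whole 3′ UTR of 317 bases, Csf2 carries 9 copies, or 28.4 per kb, a higher density than 99.95% of the 12211 tested genes with an annotated 3′ UTR. Csf3 carries 6 copies in 672 bases, or 8.93 per kb, above 98.9% of those genes. Kitl carries the most copies of any member, 14 in 4435 bases, or 3.16 per kb, above 82.8% of those genes. Csf1 has 1.89 per kb and Il34 has 2.28 per kb, above 61.9% and 69.7% of them. The median of all those genes is 1.37 per kb. The longer sequence TTATTTATT, counted on the transcript strand with overlaps, occurs 4 times in Csf2 and in none of the other 4 members. At least 1 copy of it is found in 9.29% and at least 4 copies in 0.295% of the tested genes. These are matches of letters in 1 annotated transcript per gene, and no decay rate was measured.

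Promoter windows of 300 bases, from 250 before to 50 after the RefSeq start, were on hand for Csf1, Csf2 and Kitl (RefSeq, GRCm38.p6). The κB core GGGNNNNNCC, the general letter pattern bound by NF-κB dimers, was searched on both strands and is shown in capitals, because IκBζ acts through NF-κB. It occurs in 50.4% of the 27025 promoters of that table. For Csf1 only the 229 bases before the GENCODE start of the gene are shown. For Csf2 the whole window is shown, which ends 182 bases before the GENCODE start.
Csf1, chr3:107760491-107760719, minus strand: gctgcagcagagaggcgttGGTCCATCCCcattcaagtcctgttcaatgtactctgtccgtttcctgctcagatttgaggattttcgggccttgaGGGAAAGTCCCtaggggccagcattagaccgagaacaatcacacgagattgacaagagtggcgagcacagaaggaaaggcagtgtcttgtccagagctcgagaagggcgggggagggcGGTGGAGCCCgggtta
Csf2, chr11:54249850-54250149, minus strand: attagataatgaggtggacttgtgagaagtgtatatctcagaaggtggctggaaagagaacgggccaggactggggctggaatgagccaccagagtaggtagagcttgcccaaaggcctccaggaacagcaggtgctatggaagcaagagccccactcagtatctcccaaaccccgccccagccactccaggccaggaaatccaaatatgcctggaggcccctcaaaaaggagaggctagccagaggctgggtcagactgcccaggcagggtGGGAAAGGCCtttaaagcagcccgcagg

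Csf1 has 4 matches before the GENCODE start, of which GGGAAAGTCC and GGAAAGTCCC overlap by all but 1 base on opposite strands. Csf2 has 1 match in its window, GGGAAAGGCC, and the 182 bases from there to the GENCODE start were not searched. Kitl has 3 matches in its window, all of them downstream of the GENCODE start of the gene. The windows lie differently against the GENCODE starts, so these counts cannot be set against each other. The STAT pattern TTCNNNGAA, found in 8.47% of all promoters, has no match in any of the 3 windows. Variants of these patterns were not searched, and a match is a description of the sequence only.

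The ligands of CSF1R moved in opposite directions. Csf1 had 648, 717 and 575 TPM in the Ctrl samples and 587, 595 and 570 TPM in the Nfkbiz KO samples. On this scale Ctrl replicate 3 lay among the Nfkbiz KO samples, so the groups overlapped. The deposited RPKM values did not overlap (184, 202 and 175 in Ctrl against 161, 165 and 158 in Nfkbiz KO). In the read counts, which are normalized across samples by TMM, the groups did not overlap. Csf1 fell 1.19-fold there (log2 fold change -0.25, standard error 0.063, 95% confidence interval -0.38 to -0.11, adjusted p = 0.0092, edgeR's quasi-likelihood test). The call was lost on the TPM scale (log2 fold change -0.14, adjusted p = 0.24 by limma on log2(TPM + 1)), without Nfkbiz KO replicate 1 (adjusted p = 0.052) and without Nfkbiz KO replicate 3 (adjusted p = 0.054), and the adjusted p of Csf1 ranged from 3.6e-05 to 0.29 over all 15 alternatives.

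Il34, the other CSF1R ligand, had 56.7, 55.2 and 59.9 TPM in the Ctrl samples and 84.9, 79.1 and 84.2 TPM in the Nfkbiz KO samples. All 3 Nfkbiz KO samples were higher than all 3 Ctrl samples, and the spread within either group was small (SD 2.39 and 3.17 TPM). In the normalized read counts Il34 rose 1.33-fold (log2 fold change 0.41, standard error 0.065, 95% confidence interval 0.27 to 0.55, adjusted p = 0.00035, edgeR's quasi-likelihood test). The rise was larger on the TPM scale (log2 fold change 0.52, adjusted p = 0.0012 by limma on log2(TPM + 1)). Within each library, Csf1 exceeded Il34 by 11.4, 13.0 and 9.61 times in Ctrl and by 6.91, 7.52 and 6.76 times in Nfkbiz KO. The ratio of Csf1 to Il34 thus did not overlap between the groups (log2 difference -0.67, p = 0.1 in a two-sided exact permutation test, which cannot give a lower p with 3 samples a group). Csf1 remained the more abundant CSF1R ligand in all 6 samples.

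Kitl, the KIT ligand, was the member with the largest increase. It had 34.9, 40.9 and 31.2 TPM in the Ctrl samples and 56.4, 56.1 and 58.6 TPM in the Nfkbiz KO samples. The Nfkbiz KO samples were close together and all above the highest Ctrl sample. In the normalized read counts Kitl rose 1.49-fold (log2 fold change 0.58, standard error 0.067, 95% confidence interval 0.43 to 0.72, adjusted p = 3e-05, edgeR's quasi-likelihood test). The rise was larger on the TPM scale (log2 fold change 0.67, adjusted p = 0.0066 by limma on log2(TPM + 1)). The alternative transcripts that yield membrane-bound and soluble stem cell factor are not separated by reads counted per gene.

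**Figure D2:**
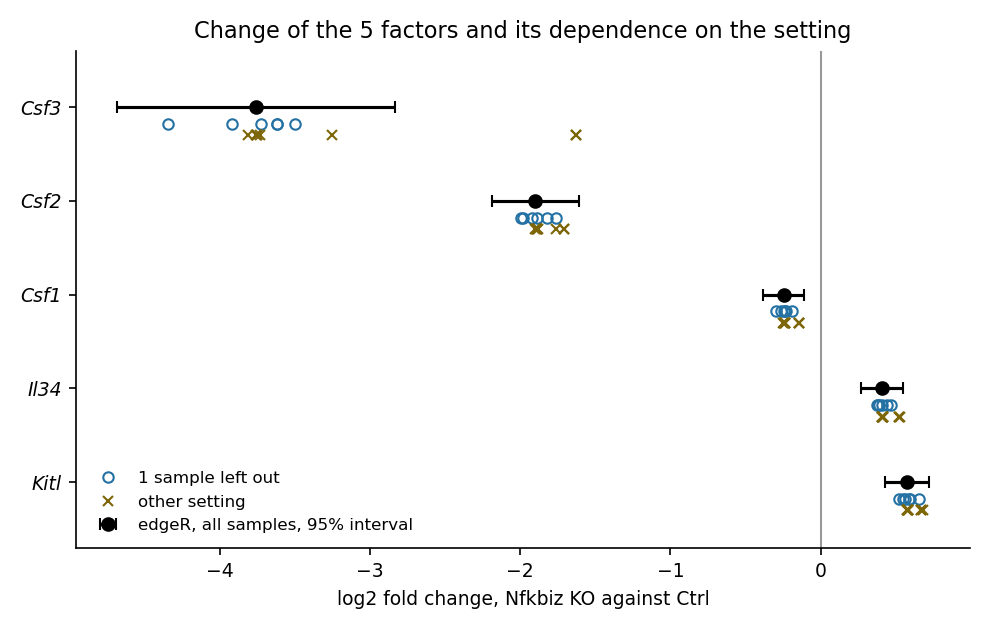
The log2 fold change of each factor in Nfkbiz KO against Ctrl (horizontal axis). Black points are the edgeR estimates with all 6 samples and their 95% intervals, open circles are estimates with 1 sample left out, and crosses are the other settings. Csf3 ranges from -4.34 to -1.63, the latter on log2(TPM + 1), and no factor crosses 0.

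All 5 members passed the test at an adjusted p of 0.05 or less, 2 in the direction of a higher level (Il34 and Kitl) and 3 in the direction of a lower level (Csf1, Csf2 and Csf3). The same threshold was passed by 36.6% of all tested genes, by 18.2% with a higher and by 18.4% with a lower level. The members were chosen with earlier results of these data known, so the count of 5 is a description only. The median log2 fold change was -0.25 over the members and -0.02 over all genes tested. Groups that did not overlap in log2 CPM were found for all 5 members and for 48.4% of tested genes. With a fold change above 2 added, Csf2 and Csf3 remained, against 5.92% of tested genes. The study's own threshold, which also asks for a difference above 4, here taken in TPM, was passed by Csf2 alone and by 1.79% of tested genes. The difference of Csf3, -2.55 TPM, was too small for it.

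In TPM, the summed level of the 5 factors differed little between the groups, while its make-up differed more. The sum was 790, 872 and 730 TPM in the Ctrl samples and 744, 747 and 728 TPM in the Nfkbiz KO samples, and the groups overlapped (797 ± 71.6 against 740 ± 10.4 TPM, SD, n = 3, two-sided exact permutation test, p = 0.3). This overlap was particular to TPM. Summed in RPKM, the other deposited level, every Nfkbiz KO sample lay below every Ctrl sample (log2 difference -0.17). Csf1 supplied 81.0% of the sum in Ctrl and 78.9% in Nfkbiz KO, again with overlap. Without Csf1, the remaining 4 factors summed to 150 ± 7.30 TPM in Ctrl and to 156 ± 2.72 TPM in the knockout samples (p = 0.3 by the same permutation test).

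Within that sum, Csf2 went from 6.91% to 2.16% and Csf3 from 0.345% to 0.0281% of the total. Il34 went from 7.24% to 11.2% and Kitl from 4.46% to 7.71%. For each of these 4 shares the groups did not overlap (p = 0.1 in the exact permutation test, the smallest it allows). The ratio of Csf2 to Csf3 also differed between the groups. Csf2 exceeded Csf3 by 14.2, 19.3 and 29.3 times in the Ctrl samples and by 98.9, 138 and 44.2 times in the Nfkbiz KO samples, and these groups did not overlap either (log2 difference 2.07, exact permutation p = 0.1). The wide spread in Nfkbiz KO goes with the 2 to 6 reads of Csf3 there. The values of 98.9 and 138 rest on 2 Csf3 reads each, under the detection limit of 3 reads. Taken as Csf3 to Csf2, the log2 difference went from -2.07 to -1.49 with 0.1 TPM added to each gene.

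**Figure D3:**
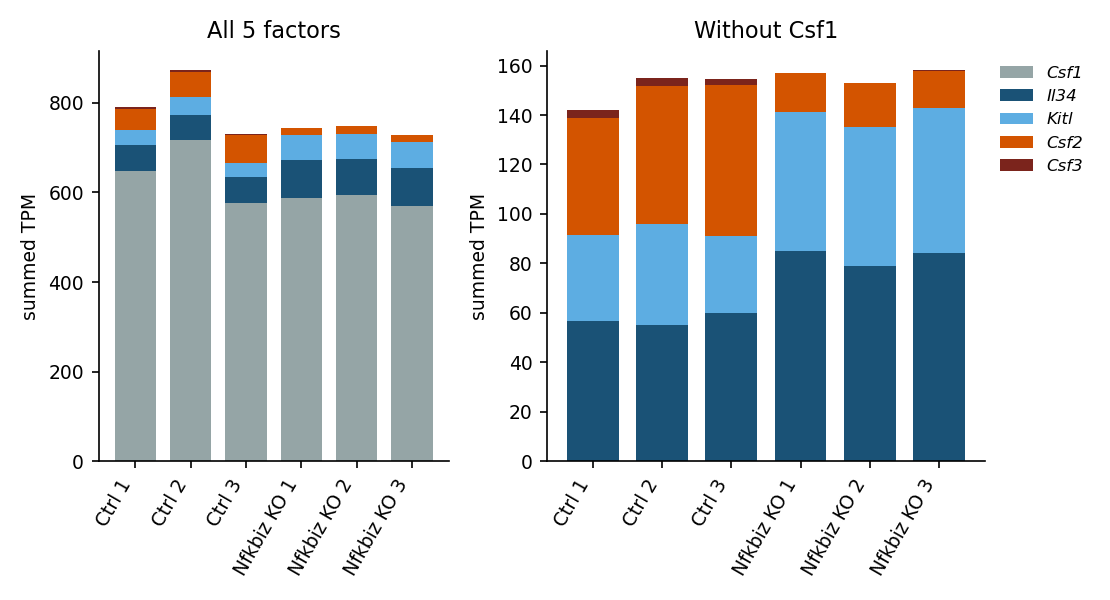
Stacked bars of summed TPM in each sample, for all 5 factors (left) and without Csf1 (right), with colours for the factors. The height of the right-hand bars stays between 142 and 158 TPM, while Csf2 shrinks and Il34 and Kitl grow in the 3 Nfkbiz KO samples.

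The receptors of these ligands were for the most part not detected or near 0 reads. Csf2rb, the signalling chain of the GM-CSF receptor, Csf3r, the G-CSF receptor, and Kit had 0 reads in all 6 samples. Zero reads allow a level of up to 0.0668 to 0.0931 CPM (reads scaled to library depth), depending on the sample. Csf1r had 3, 6 and 19 reads in Ctrl and 2, 9 and 4 reads in Nfkbiz KO, and was too low to be tested. Csf2rb2, the related chain used for IL-3, had 2 reads in a single sample, and Ptprz1, an alternative IL-34 receptor, had 1 read in a single sample.

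The ligand-binding chain of the GM-CSF receptor, Csf2ra, was present at 2.90 ± 0.455 TPM in Ctrl and at 3.37 ± 0.804 TPM in the knockout samples (log2 fold change 0.10, adjusted p = 0.77). Sdc1, a syndecan that also binds IL-34, was well expressed at 127 ± 1.94 TPM and 133 ± 3.03 TPM (log2 fold change -0.02, adjusted p = 0.85). These were the only 2 of the 8 receptor genes that could be tested, and neither passed the test.

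**Figure D4:**
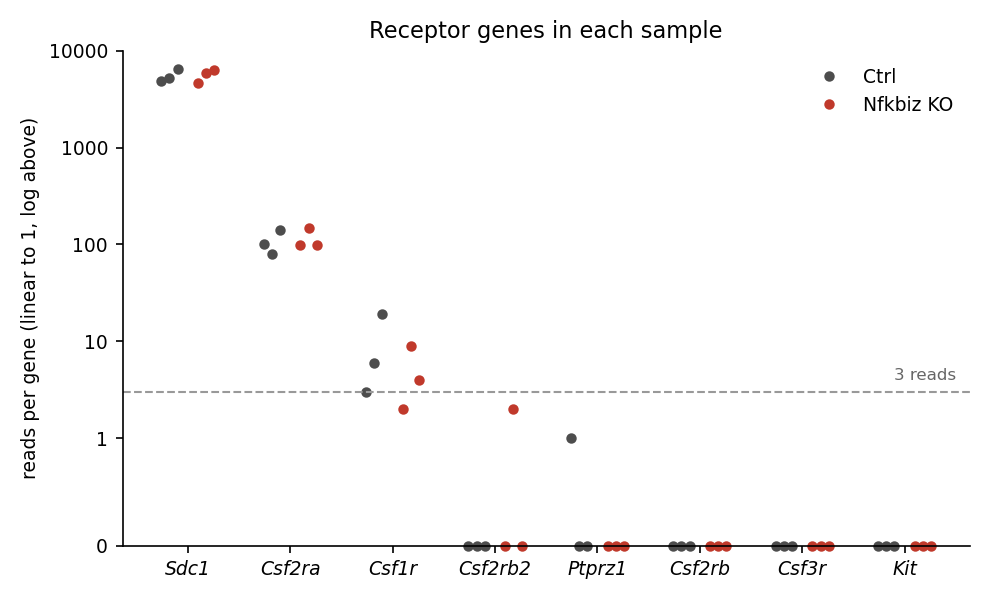
Reads per receptor gene in every sample (axis linear to 1 and logarithmic above), with 1 point per sample for Ctrl (grey) and Nfkbiz KO (red), and a dashed line at 3 reads. Sdc1 and Csf2ra lie at 80 reads or more in all samples, and Csf2rb, Csf3r and Kit lie at 0 in all of them.

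Other haematopoietic growth factors also changed in both directions. Of 10 such genes, 6 could be tested, 2 rose and 3 fell. For this count and those of the later lists, the shares over all tested genes were 18.2% higher and 18.4% lower. Il11, an IL-6 family cytokine that acts on megakaryocytes and stroma, rose from 4.42 ± 0.745 to 14.3 ± 1.48 TPM (log2 fold change 1.47, adjusted p = 7.7e-06), and Flt3l, the growth factor of dendritic cells, from 2.53 ± 0.365 to 4.499 ± 0.267 TPM (0.73, adjusted p = 0.0026). Il33, an alarmin that activates mast cells and type 2 lymphoid cells, fell from 258 ± 35.4 to 124 ± 1.94 TPM (-1.16, adjusted p = 3.3e-07). Tslp, an epithelial cytokine for dendritic cells, fell from 12.8 ± 2.83 to 8.58 ± 0.302 TPM (-0.65, adjusted p = 0.0061), a call lost on the TPM scale. Il4 passed with a log2 fold change of -0.68 in gene reads but had 0 TPM, a measure taken from exon reads, in all samples. Il3, the neighbour of Csf2, was not tested.

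Of 8 receptors of those other factors, 5 could be tested, 1 rose and 2 fell. Il1rl1, the IL-33 receptor, rose from 32.1 ± 3.72 to 95.02 ± 8.32 TPM (log2 fold change 1.47, adjusted p = 2.3e-08) while its ligand Il33 fell. Epor, the erythropoietin receptor, stayed under 1 TPM (-1.36, adjusted p = 0.023), and Il11ra1, the IL-11 receptor, went from 7.25 ± 0.410 to 6.32 ± 0.279 TPM (-0.33, adjusted p = 0.02). Both lost their calls in 7 of the other settings.

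Among 17 tested genes of the signal transduction used by these receptors, 3 rose and 4 fell. Gab2, an adaptor downstream of KIT and of the GM-CSF receptor, rose (log2 fold change 0.48, adjusted p = 0.0014), as did the exchange factor Sos1 (0.29, adjusted p = 0.014) and the ubiquitin ligase Cbl (0.21, adjusted p = 0.029), whose calls were lost in 4 and 7 of 15 other settings. Stat3, the main transducer of G-CSF, fell from 45.9 ± 3.08 to 31.7 ± 0.867 TPM (-0.63, adjusted p = 1.6e-06). Jak2, the kinase of the GM-CSF receptor, fell in the counts but lost its call on the TPM scale (-0.38, adjusted p = 0.0011), and Stat5a, its transducer, had a small decrease (-0.22, adjusted p = 0.037) that lost its call in 11 of 15 other settings.

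Of 13 tested STAT target and feedback genes, 4 rose and 5 fell. Socs3, the feedback inhibitor of the G-CSF receptor, fell from 128 ± 1.66 to 65.1 ± 4.33 TPM (log2 fold change -1.07, adjusted p = 8.1e-08). Id1, an inhibitor of differentiation factors, fell from 104 ± 7.08 to 49.1 ± 2.17 TPM (-1.18, adjusted p = 3e-07), and the kinase Pim2 from 9.04 ± 1.34 to 5.09 ± 0.213 TPM (-0.88, adjusted p = 0.00031). Socs2 (0.71, adjusted p = 5.8e-05), the cyclin Ccnd2 (0.45, adjusted p = 0.00012) and Myc (0.25, adjusted p = 0.0019) rose. Targets of these pathways thus did not move in a common direction.

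Factors of mRNA decay and stability, not only those that bind AU-rich elements, changed modestly. Of 15 tested genes, 4 rose and 1 fell. Zfp36, which encodes tristetraprolin, rose from 23.7 ± 0.178 to 33.6 ± 0.489 TPM (log2 fold change 0.41, adjusted p = 0.00022). Binding of this protein to the elements printed for Csf2 and Csf3 was not measured. Zc3h12c, a Regnase relative (0.32, adjusted p = 0.021), and Arid5a, which stabilizes some cytokine mRNAs (0.20, adjusted p = 0.033), had smaller increases, each lost in 5 of 15 other settings. Zc3h12a, the endonuclease Regnase-1, fell from 71.8 ± 3.77 to 55.9 ± 2.25 TPM (-0.48, adjusted p = 2.2e-05). Whether these levels have a part in the change of Csf2 or Csf3 was not tested.

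Of 19 transcription factors known at promoters of colony-stimulating factors, 8 rose and 7 fell, Nfkbiz itself among the latter. Cebpd fell from 203 ± 24.5 to 67.6 ± 7.09 TPM (log2 fold change -1.68, adjusted p = 1.1e-07) and Cebpb, which binds the Csf3 promoter in myeloid cells, from 326 ± 58.8 to 136 ± 16.6 TPM (-1.37, adjusted p = 7.3e-06). Bcl3, another nuclear IκB protein, fell from 57.8 ± 1.51 to 23.1 ± 1.22 TPM (-1.45, adjusted p = 5.9e-09). Nfatc1 (0.60, adjusted p = 3.2e-05) and Runx1 (0.54, adjusted p = 1e-05) rose, and Nfatc2 rose (1.78, adjusted p = 0.004) from a level near 0 (0.102 ± 0.0585 to 0.3398 ± 0.119 TPM). Their part in the change of any member was not tested.

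CSF1 and stem cell factor are made as membrane proteins that proteases release, so genes of ectodomain shedding were counted as well. Of 9 tested, 3 rose and 5 fell. Mmp14, a membrane-bound matrix protease, rose from 161 ± 3.59 to 237 ± 4.82 TPM (log2 fold change 0.41, adjusted p = 0.00043), and the sheddase Adam9 (0.24, adjusted p = 0.0049) and the inhibitor Timp3 (0.36, adjusted p = 0.00034) rose. Mmp9, a protease that releases soluble KIT ligand in bone marrow, fell from 16.5 ± 1.30 to 12.3 ± 1.18 TPM (-0.53, adjusted p = 0.0012). Rhbdf2, which carries the sheddase ADAM17 to the surface (-0.30, adjusted p = 0.0027), and Mmp2 (-0.24, adjusted p = 0.0057) had smaller decreases that were lost on the TPM scale. Protein in the medium was not measured here.

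Markers of other cell types that make or answer these factors were checked in the same libraries. Of 18 myeloid markers, 15 stayed under 1 TPM in every sample. The pan-leukocyte gene Ptprc had 0 to 6 reads, and Itgax, Adgre1, S100a9, Mpo, Elane and Tyrobp were at 0 TPM in all samples. The summed level of the list was 28.0 to 32.9 TPM in Ctrl, against 22.3 to 25.9 TPM in the knockout samples, most of it Cd14 and S100a8. S100a8, a calcium-binding alarmin of neutrophils that other cells can also make, fell from 13.4 ± 2.19 to 5.86 ± 1.24 TPM (log2 fold change -1.32, adjusted p = 0.00055). None of 11 lymphoid and mast cell markers could be tested, and their sum was at most 0.323 TPM in any sample.

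Of 11 fibroblast and endothelial markers 7 could be tested, of which 1 rose and 3 fell, and the summed level was 623 to 707 TPM in Ctrl, against 525 to 566 TPM in the knockout samples. Its largest part was collagen, with Col1a1 at 367 ± 25.2 and 263 ± 17.4 TPM (log2 fold change -0.58, adjusted p = 1.2e-05) and Col1a2 at 203 ± 9.06 and 187 ± 3.41 TPM (-0.21, adjusted p = 0.0074, lost on the TPM scale). The fibroblast proteoglycan Dcn fell from 15.0 ± 2.82 to 9.38 ± 0.496 TPM (-0.79, adjusted p = 0.00025), whereas Lum and Thy1 stayed under 1 TPM in all samples. The growth factor receptors Pdgfra, at 36.7 ± 3.83 TPM in Ctrl and 39.5 ± 0.992 TPM in the knockout (log2 fold change 0.00, adjusted p = 0.98), and Pdgfrb, at 46.6 ± 5.83 and 51.5 ± 2.68 TPM (0.05, adjusted p = 0.61), were well expressed and did not pass the test. The endothelial gene Cdh5 rose from 0.548 ± 0.139 to 1.54 ± 0.313 TPM (1.34, adjusted p = 0.0023), with Kdr and Tek under 1 TPM throughout. Whether cells of another type had a part in the levels of the members was not tested.

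The members lie on 4 chromosomes of GRCm39. Csf2 (chr11:54138097-54140493, minus strand) and Csf3 (chr11:98592089-98594458, plus strand) share chromosome 11, and Csf1 is at chr3:107648364-107667806 on the minus strand. Il34 is at chr8:111423928-111532584 on the minus strand, and Kitl is at chr10:99851492-99936278 on the plus strand. Within 250 kb of the start of each member, 8 genes were tested around Csf1 (2 rose and 2 fell), 5 around Csf2 (2 rose and 2 fell), 12 around Csf3 (1 rose and 4 fell) and 8 around Il34 (4 rose and 1 fell). No gene could be tested near Kitl. Over all tested genes, 18.2% rose and 18.4% fell at the same threshold.

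The neighbours with the largest changes moved in both directions. Near Csf2, P4ha2, a collagen prolyl hydroxylase 158.9 kb away, fell (log2 fold change -1.47, adjusted p = 6.3e-09), as did Acsl6, an acyl-CoA synthetase 53.9 kb away (-0.90, adjusted p = 1.1e-06), while the carnitine-related transporter Slc22a4 at 220.7 kb rose (0.92, adjusted p = 1.4e-06). Near Csf3, the clock repressor Nr1d1 rose (1.35, adjusted p = 1.6e-08) and Rapgefl1 fell from a low level (-0.88, adjusted p = 0.0097). Psmd3, the nearest tested gene to Csf3 at 18.7 kb, had a log2 fold change of -0.07 (adjusted p = 0.37). Psmd3 was singled out after its value was seen. Near Csf1, the non-coding 4933431E20Rik rose from 0.243 ± 0.0223 to 0.457 ± 0.0542 TPM (0.80, adjusted p = 0.049), a call lost in 9 of 14 other settings.

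For each member, the tested genes with the most similar profile over the 6 samples were found by the root mean square difference of centred log2 CPM. Nearest to Csf2 were Cyp39a1, an oxysterol hydroxylase (difference 0.0757), Gm11747 and Iglon5. Gm11747 had 0 TPM in Ctrl, so its match does not rest on exon reads, and its direction turned on the TPM scale. Nearest to Csf3 were Hunk, a kinase (0.2752), Cacna1c, a calcium channel subunit, and Atp2b4, a calcium pump. The larger difference for Csf3 goes with its few reads and with a fold change that few tested genes reach.

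For the other members the nearest profiles were much closer. Csf1 was matched by Dedd2 (0.0185), the myelin proteolipid Gpm6b and the ubiquitin ligase Mid1. Dedd2 itself did not pass edgeR's quasi-likelihood test (adjusted p = 0.11). Il34 was matched by the aminopeptidase Lap3 (0.0273), by Zfp36 and by Apol9a. Kitl was matched by Trim30d (0.0205), Mb21d2 and the receptor kinase Mertk, which rose from 14.9 ± 2.47 to 25.6 ± 0.236 TPM (log2 fold change 0.62, adjusted p = 1.2e-05). These are likenesses over the same 6 samples and carry no test.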

How the data were processed

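RNA of D4M-3A cells, 3 Ctrl and 3 Nfkbiz KO samples, had been sequenced as paired reads. Reads were mapped by the authors in CLC Genomics Workbench, who deposited 1 gene table per sample. The deposited counts are total and uniquely mapped gene reads, not normalized and not split by strand. The deposited TPM and RPKM values are based on exon reads and written with decimal commas, which were converted. The build is GRCm39 in the paper's methods and GRCm38 in the submitters' processing notes. The tables hold no coordinates, so those given here come from GENCODE (GRCm39), matched by symbol.

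Total gene reads were tested with edgeR 4.0.16 (R 4.3.3): TMM, filterByExpr with a minimum count of 10, a quasi-likelihood test and Benjamini-Hochberg adjustment over the 14419 genes tested. The standard error is the log2 fold change divided by the square root of F. Fold changes are of these gene reads, so a ratio of printed TPM levels can differ from them. The procedure was tested on simulated counts. Exact permutation tests over samples used scipy 1.17.1. A total of 3 reads was taken as the limit of detection. Alternatives were DESeq2 1.42.0, RLE factors, other filters, unique reads, limma 3.58.1 on log2(TPM + 1) and log2(TPM + 0.1), other thresholds, a block for the replicate number and each sample left out in turn.

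The members, 12 further gene lists and the rules were chosen with earlier results of these data known. Named are all members and receptors, the 3 nearest genes by profile for each member, and, of each other list and of the neighbours, up to 3 of the most increased and 3 of the most decreased genes at an adjusted p of 0.05 or less. Other genes named, such as cell type markers that did not pass or could not be tested, and Il3 and Psmd3, were chosen after their values were seen. Promoters of Csf3 and Il34 and protein sequences were not analysed here.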

Additional observations from a re-analysis of the deposited data

How the results depend on the processing

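Csf2, Csf3, Il34, Kitl and Nfkbiz kept their direction and their call in every setting that tested them. Csf3 could not be tested with a minimum of 1 CPM in at least 3 samples, a filter it did not pass. Csf1 kept its direction everywhere but was no longer past the threshold with limma on log2(TPM + 1) (-0.14, adjusted p = 0.24), on log2(TPM + 0.1) (-0.14, adjusted p = 0.25) and on all genes with a TPM above 0 (-0.14, adjusted p = 0.29). These TPM scales moved the median log2 fold change of all tested genes from -0.02 to 0.06 and 0.08, and whether this accounts for the lost call was not tested.

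With 1 sample left out, log2 fold changes ranged from -0.30 to -0.19 for Csf1, from -1.995 to -1.76 for Csf2, from -4.34 to -3.50 for Csf3, from 0.38 to 0.47 for Il34 and from 0.52 to 0.66 for Kitl. From 4 to 5 members and from 3798 to 5533 of all genes then passed. The members passing fell from 5 to 1 (258 of all genes) with the study's fold and difference, to 2 (854 of all genes) with a fold above 2 alone, and to 2 (1810 of all genes) with a fold of 1.5 or more and an adjusted p up to 0.1, which follows from the added fold. Samples with the same replicate number did not deviate together (correlations of deviations 0.037, -0.023 and 0.026). Whether samples with the same number came from 1 experiment is not given in the sources used here. A fit with a replicate block gave -0.24 for Csf1, -1.89 for Csf2, -3.73 for Csf3, 0.41 for Il34 and 0.58 for Kitl and changed no member's call. The summed TPM and the ratios kept their direction with RPKM, with 0.1 TPM added and with 1 sample left out. The size of the change in the sum and the overlap of the groups depended on the scale. The log2 difference was -0.10 in TPM, where the groups overlapped, and -0.17 in RPKM, where they did not. Depth limits Csf3 most, with 10 reads over the 3 Nfkbiz KO samples.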
